A study of Homo sapiens with 9 samples.

Results

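CCN1 and CCN2, the textbook target genes of the Hippo pathway, were read together with 6 further genes of that pathway on 9 Affymetrix arrays of the human neuroblastoma line SK-N-AS. The members were chosen by name: the targets CCN1 (older name CYR61), CCN2 (CTGF) and ANKRD1, the inhibitors AMOTL2 and LATS2, the coactivators YAP1 and WWTR1 (which encodes TAZ), and the transcription factor gene TEAD1. This choice was made with earlier results of these data known. These 8 genes, of 19775 with a probe set, have 18 of the 54675 probe sets. The study compared cells given the RE-EX1 construct, for full-length NRSF, cells given the HZ4 construct, for a truncated NRSF, and untreated cells, each with an array at 0, 24 and 48 h. NRSF, encoded by REST, is a repressor of neuronal genes. All 9 groups are 1 line grown in serum-containing medium of 1 recipe, and the 0 h arrays of both construct series are their baselines. Each group holds 1 array, so no group has a replicate; the series description speaks of triplicates over batches, but no batch or pooling is given for an array. What drives expression of the constructs, and how cells took them up, is not stated in the labels.

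YAP and TAZ have no DNA-binding domain of their own and act on genes through TEAD proteins. The kinases LATS1 and LATS2 phosphorylate YAP and TAZ, which keeps them out of the nucleus, and angiomotin proteins such as AMOTL2 bind YAP and hold it in the cytoplasm. CCN1, CCN2, ANKRD1, AMOTL2 and LATS2 are all known as genes that YAP and TAZ switch on, so that AMOTL2 and LATS2 act as negative feedback. CCN1 and CCN2 are secreted matrix-associated proteins that bind integrins, and serum, stretch and other growth signals are known to induce them quickly. YAP activity is controlled mostly at the protein level, which RNA arrays do not measure.

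AMOTL2 and LATS2 rose at 24 h and were higher in 3 of 3 series, while neither CCN1 nor CCN2 passed the test at any time. AMOTL2 was 2.8-fold higher at 24 h than at 0 h and 1.85-fold higher at 48 h, and LATS2 was 1.56-fold higher at 24 h. CCN2 at 48 h was low on both construct arrays and high on the untreated array. The probe sets of YAP1, WWTR1 and TEAD1 did not agree on a direction. Signals of the brightest probe set of each gene are plotted by series and time.

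**Figure D1:**
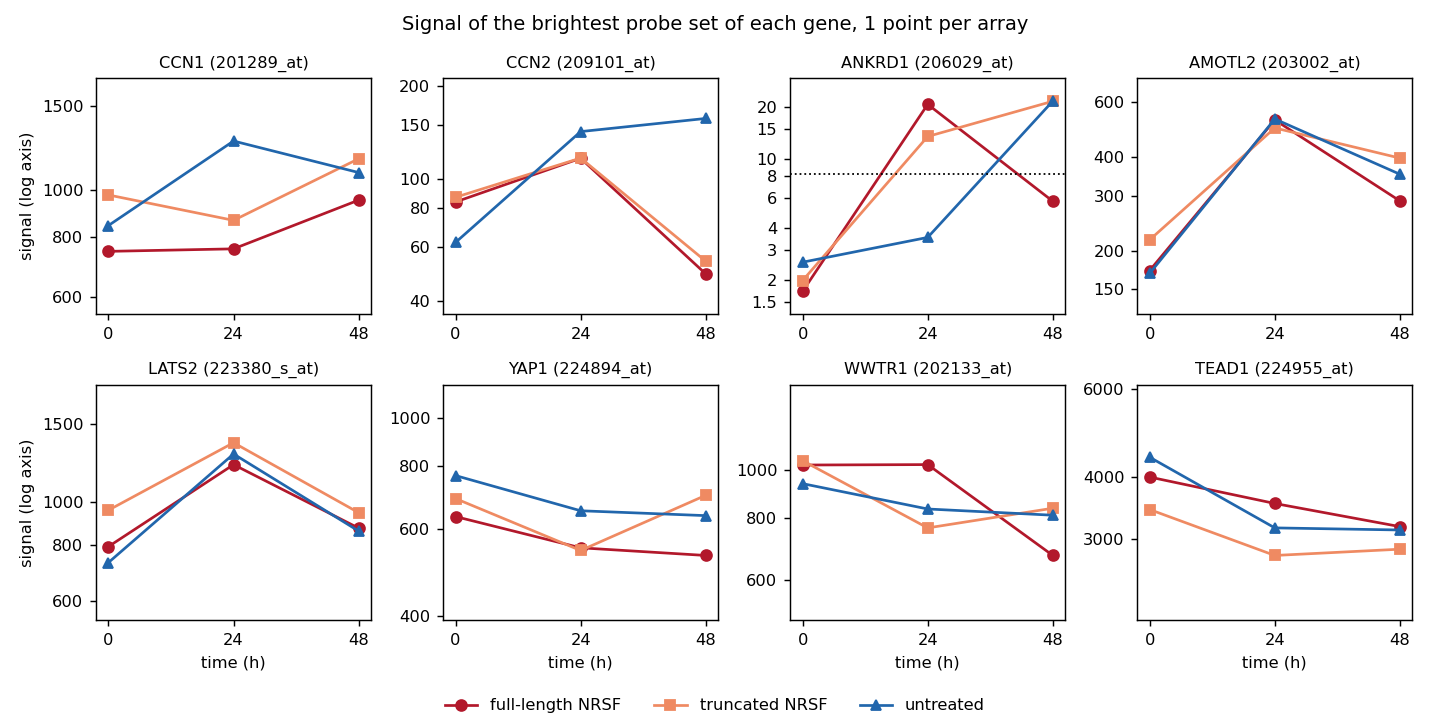
Signal of the brightest probe set of each of the 8 genes (log axis) at 0, 24 and 48 h, with 1 point per array and a line per series; the dotted line for ANKRD1 is the floor at a signal of 8.27. AMOTL2 and LATS2 peak at 24 h in each series, and CCN2 separates at 48 h into 48.9 and 53.8 on the construct arrays against 157 on the untreated array.

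The arrays had the same trimmed mean of 150.02 and medians of 30.9 to 42.7, so they were on 1 scale. The truncated 24 h array stood apart: its median correlation with the other arrays across genes was 0.909, against 0.922 to 0.931 for the others, and its dimmest 20% of genes read 0.52 log2 above their mean over arrays. As a sign of RNA integrity, ACTB control probe sets gave 3′ over 5′ ratios of 2.25 to 4.19. The highest were those of the full-length arrays at 0 h (4.19) and 24 h (3.63) and of the untreated 48 h array (3.47). Of the sympathetic neuroblast markers, GATA3 read 1346 to 1912 and ISL1 189 to 485, whereas TH and DBH, which encode enzymes of catecholamine synthesis, were at or under the floor on 2 and 5 of 9 arrays. All 6 mesenchymal neuroblastoma markers were kept, VIM at 9354 to 14403, and of these SNAI2 rose by 1.26 ± 0.15 (adjusted p = 2.5e-05) while FN1 and PRRX1 fell by 1.43 ± 0.16 (adjusted p = 1.8e-05) and 1.20 ± 0.15 (adjusted p = 4.5e-05) at 24 h. Summed signals of 6 epithelial markers were 164 to 181, 149 to 179 and 155 to 245 at 0, 24 and 48 h. Those of 5 blood markers were 136 to 152, 157 to 240.2 and 193 to 248. PTPRC and HBB (15.3 to 71.2) stayed above the floor on every array, whereas CD3E, CD14 and SPI1 were at or under it on 5, 4 and 6 of 9 arrays. HBB and FN1 were read by _x_at probe sets, which are prone to cross-hybridization. Summed signals of 5 endothelial markers were 142 to 219.9, 131 to 226 and 172 to 255. For 5 muscle markers they were 94.7 to 135, 108 to 122 and 71.9 to 103. The blood sum was lower at 0 h than at both later times, and PTPRC stood at 0.59 ± 0.29 (adjusted p = 0.20) at 24 h and 1.05 ± 0.29 (adjusted p = 0.034) at 48 h. All 9 arrays are of 1 cell line, and whether any of these marker signals come from other cells was not tested.

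Differences are given in log2 after setting signals under the 25th percentile of all values (8.27) to that floor. With 1 array per group, limma tested time across the 3 series (n = 3 arrays per time), with series as a term and the probe set with the highest mean for each gene. Of the 8 genes 7 were bright enough to be tested among 13804, and ANKRD1 was not. At 24 h 2 of the 7 rose and 0 fell at an adjusted p under 0.05 (3 had an unadjusted p under 0.05), where 16.2% of all genes were called (8.04% up and 8.2% down). At 48 h 1 rose and 0 fell, against 8.37% of all genes (4.5% up and 3.88% down). From 24 to 48 h 0 rose and 1 fell, against 3.5% of all genes (1.72% up and 1.78% down). The median change of the 7 was 0.14 at 24 h and −0.04 at 48 h, beside −0.03 and −0.01 over all genes. A lower signal in RNA of a whole culture can come from fewer expressing cells or from less RNA per cell, and these cannot be told apart.

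CCN1 (chromosome 1, 85580761 to 85583950, GRCh38.p14) was bright and changed little. On probe set 201289_at its signal at 0, 24 and 48 h was 746, 755 and 954 under full-length NRSF, 978, 866 and 1163 under truncated NRSF and 844, 1266 and 1089 in the untreated series. The untreated 24 h array had the highest signal of the 9, and the arrays of the 3 times overlapped. The second probe set, 210764_s_at, read 391, 314 and 547 under full-length NRSF, 522, 481 and 478 under truncated NRSF and 452, 673 and 589 in the untreated series. In the untreated series both probe sets read higher at 24 h than at 0 h, by 0.58 and 0.57 log2, beside 0.02 and −0.32 under full-length NRSF and −0.18 and −0.12 under truncated NRSF. Across series the change on 201289_at was 0.14 ± 0.16 (standard error, adjusted p = 0.62) at 24 h and 0.32 ± 0.16 (adjusted p = 0.24) at 48 h, when all 3 series stood above their 0 h arrays. On 210764_s_at the 48 h change was 0.48 under full-length NRSF, −0.13 under truncated NRSF and 0.38 in the untreated series. Without the untreated series the 24 h change of CCN1 was −0.08.

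CCN2 (chromosome 6, 131948176 to 131951372) has 1 probe set, 209101_at. RefSeq's promoter table (GRCh38.p14) holds windows for 6 of the 8 genes, all but CCN1 and TEAD1. The 250 bases before the start of CCN2 are shown because they carry the letters CATTCC, the core that TEAD proteins recognise, 3 times. Capitals mark CATTCC or its reverse complement GGAATG, on either strand, in this window (chr6:131951373-131951622, minus strand).
CCN2: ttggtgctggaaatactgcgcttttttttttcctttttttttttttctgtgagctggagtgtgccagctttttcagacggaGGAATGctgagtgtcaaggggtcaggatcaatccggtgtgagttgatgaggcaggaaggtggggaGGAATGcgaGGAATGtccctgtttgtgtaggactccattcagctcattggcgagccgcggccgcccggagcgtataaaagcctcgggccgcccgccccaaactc
The matches begin 169, 104 and 95 bases before the start. Of 35116 RefSeq promoter windows of this length 11.9% hold at least 1 match and 0.0826% at least 3. A match describes these letters and is not evidence of binding in these cells. No match to the AP-1 motif TGANTCA or to the CArG box of SRF was found in this window, which 6.57% and 1.16% of all windows hold at least once.

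The CCN2 signal at 0, 24 and 48 h was 83.9, 116 and 48.9 under full-length NRSF and 86.9, 117 and 53.8 under truncated NRSF. In untreated cells it was 61.9, 142 and 157. At 24 h CCN2 was higher than at 0 h in 3 of 3 series, and the 24 h arrays (116 to 142) did not overlap the 0 h arrays (61.9 to 86.9), which held in the upward direction for 14.3% of all genes. The mean change at 24 h was 0.70 ± 0.39 (adjusted p = 0.26) and did not pass the test. At 48 h the series parted: the change from 0 h was −0.78 under full-length NRSF and −0.69 under truncated NRSF, but 1.34 in untreated cells, and the mean was −0.04 ± 0.39 (adjusted p = 0.96). This 48 h mean, leaving out first the full-length, then the truncated, then the untreated series, was 0.32, 0.28 and −0.74. From 24 to 48 h CCN2 stood at −0.74 ± 0.39 (adjusted p = 0.34).

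Net of the untreated series, CCN2 at 48 h differed by −2.12 log2 under full-length NRSF and by −2.03 under truncated NRSF. Both net values use the same untreated arrays, and among the 3 arrays at 0 h the untreated one read lowest for CCN2. Array against array at 48 h, the differences were −1.68 and −1.55, while at 0 h they were 0.44 and 0.49. Net differences of 2-fold or more downward with both constructs at 48 h were found for 5.53% of genes, and 1.37% were at least as low as CCN2 in both. The exposure model, which takes 24 and 48 h as repeated readings of 1 construct effect, gave −1.42 ± 0.78 (adjusted p = 1.00) for full-length NRSF and −1.41 ± 0.78 (adjusted p = 0.73) for truncated NRSF, so the difference did not pass the test. In that model 0 of the 7 genes were called for either construct (0 had an unadjusted p under 0.05), where 0.00724% and 0.0362% of all genes were called. The largest remaining estimates were those of CCN1, at −0.29 ± 0.33 (adjusted p = 1.00) for full-length NRSF and −0.44 ± 0.33 (adjusted p = 0.82) for truncated NRSF. With 2 residual degrees of freedom and no replicate cultures, such a p does not show that the constructs left these genes alike.

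At 24 h the net differences of CCN2 were −0.73 under full-length NRSF and −0.78 under truncated NRSF. For CCN1 they were −0.57 and −0.76 on 201289_at and −0.89 and −0.69 on 210764_s_at, all below 0, with both constructs set against the same untreated arrays. Such sizes were common: 30.6% and 36.0% of genes had net differences at least as large in size as those of CCN2. For CCN1 on 201289_at the shares were 39.0% and 36.7%. At 48 h the net differences of CCN1 were −0.01 and −0.12 on the first probe set and 0.10 and −0.51 on the second, closer to 0 than those of CCN2 at the same time. Among the other tested genes the exposure model put LATS2 at −0.15 ± 0.29 (adjusted p = 1.00), YAP1 at 0.02 ± 0.33 (adjusted p = 1.00), WWTR1 at −0.11 ± 0.34 (adjusted p = 1.00) and TEAD1 at 0.22 ± 0.29 (adjusted p = 1.00) for full-length NRSF. For truncated NRSF it put LATS2 at −0.28 ± 0.29 (adjusted p = 0.90), YAP1 at 0.09 ± 0.33 (adjusted p = 0.98), WWTR1 at −0.19 ± 0.34 (adjusted p = 0.94) and TEAD1 at 0.19 ± 0.29 (adjusted p = 0.93). With the mean of all probe sets LATS2 turned to 0.56 for full-length and 0.35 for truncated NRSF. TEAD1 turned to −0.052 for full-length and WWTR1 to 0.015 for truncated NRSF. None of these passed the test.

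ANKRD1 (chromosome 10, 90912096 to 90921087) encodes a nuclear ankyrin repeat protein best known from heart muscle. It was the dimmest member, with signals at 0, 24 and 48 h of 1.73, 20.8 and 5.72 under full-length NRSF, 2.0, 13.5 and 21.6 under truncated NRSF and 2.55, 3.54 and 21.7 in untreated cells. All 3 arrays at 0 h, the untreated array at 24 h and the full-length array at 48 h were under the floor. With 0 h set to the floor, ANKRD1 read 1.33 and 0.71 log2 higher at 24 h in the full-length and truncated series. At 48 h it read 1.39 and 1.39 higher in the truncated and untreated series. Dim genes can read this high on single arrays. The epithelial marker KRT14, at or under the floor on 8 arrays, read up to 33.4. The muscle marker MYOG, at or under it on 4 arrays, read up to 94.6. The truncated 24 h array also read its dimmest genes 0.52 log2 above their mean over arrays. Such readings near the floor set no lower bound on a rise of ANKRD1, which was not tested. Its promoter window (chr10:90921088-90921337, minus strand) is shown for its 2 matches to CATTCC, in capitals, which begin 220 and 128 bases before the start.
ANKRD1: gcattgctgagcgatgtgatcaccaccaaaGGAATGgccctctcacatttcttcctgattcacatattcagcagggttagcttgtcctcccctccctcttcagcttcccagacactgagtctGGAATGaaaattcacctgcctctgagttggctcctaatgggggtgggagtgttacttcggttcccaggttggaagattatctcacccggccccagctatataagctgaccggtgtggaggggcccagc
At least 2 matches are found in 0.94% of all windows, and this window also holds 1 TGANTCA match, TGATTCA, beginning 195 bases before the start.

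AMOTL2 (chromosome 3, 134355345 to 134375417), the angiomotin-like inhibitor of YAP, had the largest change among the 7 tested genes. Its signal on probe set 203002_at at 0, 24 and 48 h was 173, 526 and 289 under full-length NRSF, 217, 496 and 396 under truncated NRSF and 169, 529.6 and 352 in untreated cells. The 24 h arrays (496 to 529.6) and the 48 h arrays (289 to 396) lay above the 0 h arrays (169 to 217), with no overlap. Gaps of this kind upward from 0 h were found for 14.3% of genes at 24 h and 13.5% at 48 h. In each series the 24 h array read higher than the 48 h array. AMOTL2 rose by 1.48 ± 0.18 (adjusted p = 5.2e-05) at 24 h and by 0.89 ± 0.18 (adjusted p = 0.0070) at 48 h, and 2.24% of all genes had a higher change at 24 h. The mean signal was 186 ± 26.5, 517 ± 18.6 and 346 ± 54.1 at 0, 24 and 48 h (SD, n = 3 arrays of different series). The 24 h call stood under all 12 alternatives, at 1.40 to 1.63; the 48 h call ended without the mean-variance trend (adjusted p = 0.10), without the full-length series (0.97, adjusted p = 0.068) and without the untreated series (0.81, adjusted p = 0.075). From 24 to 48 h it stood at −0.59 ± 0.18 (adjusted p = 0.092), and neither construct effect passed the test, with −0.18 ± 0.40 (adjusted p = 1.00) for full-length and −0.32 ± 0.40 (adjusted p = 0.91) for truncated NRSF.

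RefSeq gives AMOTL2 a pair of starts, and both windows are shown since this gene carries the largest change. The upstream window (chr3:134375418-134375667, minus strand) has no CATTCC match, and the other (chr3:134374448-134374697, minus strand) has 1, in capitals, beginning 69 bases before the start.
AMOTL2, start 1: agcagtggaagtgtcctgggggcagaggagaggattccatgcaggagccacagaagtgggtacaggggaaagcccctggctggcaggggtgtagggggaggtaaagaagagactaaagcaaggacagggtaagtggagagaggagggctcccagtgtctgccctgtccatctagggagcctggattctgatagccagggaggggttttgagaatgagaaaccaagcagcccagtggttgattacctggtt
AMOTL2, start 2: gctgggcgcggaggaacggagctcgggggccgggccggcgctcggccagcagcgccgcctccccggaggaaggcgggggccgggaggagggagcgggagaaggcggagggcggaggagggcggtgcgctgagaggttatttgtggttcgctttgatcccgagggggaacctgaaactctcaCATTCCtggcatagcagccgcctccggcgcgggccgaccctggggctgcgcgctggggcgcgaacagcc
Which start is used in these cells is not measured by the array.

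LATS2 (chromosome 13, 20973036 to 21061586), the kinase gene that is itself a YAP target, rose less. On its brightest probe set, 223380_s_at, signals at 0, 24 and 48 h were 795, 1217 and 875 under full-length NRSF, 961, 1364 and 948 under truncated NRSF and 732, 1286 and 862 in untreated cells. The 24 h array was the highest of each series. The 24 h arrays (1217 to 1364) lay above the 0 h arrays (732 to 961) with no overlap, as for 14.3% of genes. LATS2 rose by 0.64 ± 0.14 (adjusted p = 0.0042) at 24 h, stood at 0.12 ± 0.14 (adjusted p = 0.67) at 48 h and fell by 0.53 ± 0.14 (adjusted p = 0.045) from 24 to 48 h. The 24 h call ended without the mean-variance trend (adjusted p = 0.068), without the full-length series (0.66, adjusted p = 0.0505) and without the untreated series (0.56, adjusted p = 0.066), and the fall from 24 to 48 h kept its call in 4 of 12 alternatives, losing it without any 1 of the series or the truncated 24 h array (−0.50 to −0.56, adjusted p = 0.11 to 0.24).

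A second probe set of LATS2, 227013_at, read 408, 936 and 731 under full-length NRSF, 440.3, 801 and 638 under truncated NRSF and 493, 573 and 617 in untreated cells. It rose by 0.76 ± 0.18 (adjusted p = 0.0084) at 24 h in a fit over all 32768 probe sets past the filter, and in untreated cells the change was 0.22, beside 1.20 and 0.86 with full-length and truncated NRSF. The third, 230348_at, was under the floor on 4 arrays, among them all 3 at 0 h. Its 24 h signals were 32 under full-length NRSF, 32.1 under truncated NRSF and 30.3 without a construct. With 0 h set to the floor, these read 1.87 to 1.96 log2 higher, which sets no lower bound on a rise. This probe set did not pass the filter and was not tested. The last, 223379_s_at, was at or under the floor on 5 arrays and gave 0.51, 1.34 and −0.10. No CATTCC match was found in the LATS2 window (chr13:21061587-21061836, minus strand), shown beside those of its fellow inhibitor.
LATS2: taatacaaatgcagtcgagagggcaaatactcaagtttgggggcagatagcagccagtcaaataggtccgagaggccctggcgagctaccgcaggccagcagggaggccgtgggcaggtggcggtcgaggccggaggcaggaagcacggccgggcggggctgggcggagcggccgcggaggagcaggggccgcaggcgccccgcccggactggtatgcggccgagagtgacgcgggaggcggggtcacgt
Over the 9 arrays, the log2 signals of AMOTL2 and LATS2 had a Pearson correlation of 0.866, given as a description because the arrays share their times and series; that of CCN1 and CCN2 was 0.122.

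**Figure D2:**
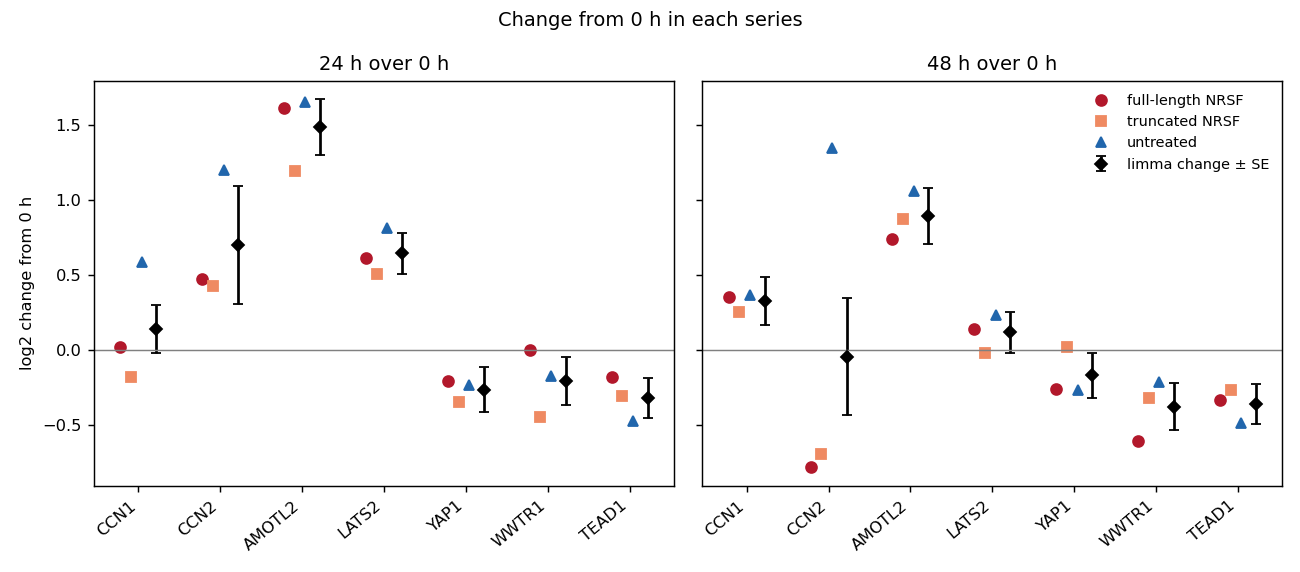
Log2 change from 0 h at 24 h (left) and 48 h (right) for the 7 tested genes, with 1 coloured point per series and limma's change with its standard error in black. AMOTL2 is at 1.48 at 24 h with series values of 1.19 to 1.65, and CCN2 at 48 h spans −0.78 to 1.34.

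The coactivator gene YAP1 (chromosome 11, 102110447 to 102233424) has 3 probe sets, all bright. On the brightest, 224894_at, signals at 0, 24 and 48 h were 635, 549 and 530.1 under full-length NRSF, 689.6, 542 and 700.1 under truncated NRSF and 767, 652 and 637 in untreated cells. The change there was −0.26 ± 0.15 (adjusted p = 0.28) at 24 h, lower in 3 of 3 series, and −0.17 ± 0.15 (adjusted p = 0.56) at 48 h. On 213342_at, signals were 269, 417 and 491 under full-length NRSF, 239.8, 374 and 414 under truncated NRSF and 211, 357 and 347 in untreated cells, so that all 24 and 48 h arrays lay above all 0 h arrays. Upward gaps of this kind were found for 14.3% of genes at 24 h and 13.5% at 48 h, and were not counted over probe sets. Probe set 213342_at rose by 0.68 ± 0.18 (adjusted p = 0.018) at 24 h and 0.79 ± 0.18 (adjusted p = 0.012) at 48 h. The third, 224895_at, stood at −0.12 ± 0.20 (adjusted p = 0.78) and 0.02 ± 0.20 (adjusted p = 0.98), and the mean of all 3 was 0.10 (adjusted p = 0.71) at 24 h. The exons that each probe set reads are not in the annotation used. The YAP1 promoter window also holds 1 CATTCC match, where 11.9% of all windows hold at least 1, and neither window of WWTR1 holds any.

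WWTR1 (chromosome 3, 149517235 to 149724788), which encodes TAZ, also differed between probe sets. On 202133_at, the brightest, signals at 0, 24 and 48 h were 1021, 1023 and 672 under full-length NRSF, 1042, 764 and 836 under truncated NRSF and 937, 833 and 809.8 in untreated cells. The change was −0.20 ± 0.16 (adjusted p = 0.44) at 24 h and −0.38 ± 0.16 (adjusted p = 0.16) at 48 h, where it was lower in 3 of 3 series. On 202134_s_at, signals were 77.9, 129 and 83.7 under full-length NRSF, 80.04, 233 and 117 under truncated NRSF and 81.2, 258 and 102 in untreated cells. The 24 h array was the highest of each series there, the rise was 1.31 ± 0.30 (adjusted p = 0.0063) at 24 h, and 48 h stood at 0.33 ± 0.30 (adjusted p = 0.62). The third probe set, 202132_at, was higher at 24 h in 3 of 3 series, by 0.20, 1.02 and 0.36 under full-length NRSF, truncated NRSF and no treatment, with a mean of 0.53 ± 0.26 (adjusted p = 0.22). With the mean of all probe sets WWTR1 was therefore called upward at 24 h, at 0.55 (adjusted p = 0.047).

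TEAD1 (chromosome 11, 12674421 to 12944737), the DNA-binding partner, was read brightly by 224955_at, with signals at 0, 24 and 48 h of 3992, 3533 and 3174 under full-length NRSF, 3436, 2778 and 2859.9 under truncated NRSF and 4375, 3156 and 3125 in untreated cells. Every series was lower at 24 and 48 h than at 0 h, by 0.32 ± 0.13 (adjusted p = 0.12) and 0.36 ± 0.13 (adjusted p = 0.11) on average, and neither passed the test. Under quantile normalization the 48 h fall was called, at −0.43 (adjusted p = 0.041). The mean of all its probe sets was 0.09 (adjusted p = 0.80) at 24 h. The other probe sets, 214600_at and 1553322_s_at, stood at 0.18 ± 0.18 (adjusted p = 0.60) and 0.41 ± 0.31 (adjusted p = 0.46) at 24 h. On both, the full-length series was lower at 24 h (−0.22 and −0.46) and the truncated (0.40 and 1.11) and untreated series (0.36 and 0.59) were higher.

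Of the 18 probe sets 15 passed the filter, and 5 of these rose and 0 fell at 24 h at an adjusted p under 0.05 (6 had an unadjusted p under 0.05), where 11.5% of all probe sets were called. They were the single probe set of AMOTL2, the 2 brightest of LATS2, 213342_at of YAP1 and 202134_s_at of WWTR1. At 48 h 2 rose and 0 fell, those of AMOTL2 and 213342_at of YAP1, against 5.46% of all probe sets. From 24 to 48 h 0 of the 15 were called (5 had an unadjusted p under 0.05), against 2.35%. The LATS2 fall from 24 to 48 h thus did not pass when adjusted over all probe sets (adjusted p = 0.062). Of the 18 probe sets, 5 have identifiers ending in _s_at, which mark probes shared by several transcripts.

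**Figure D3:**
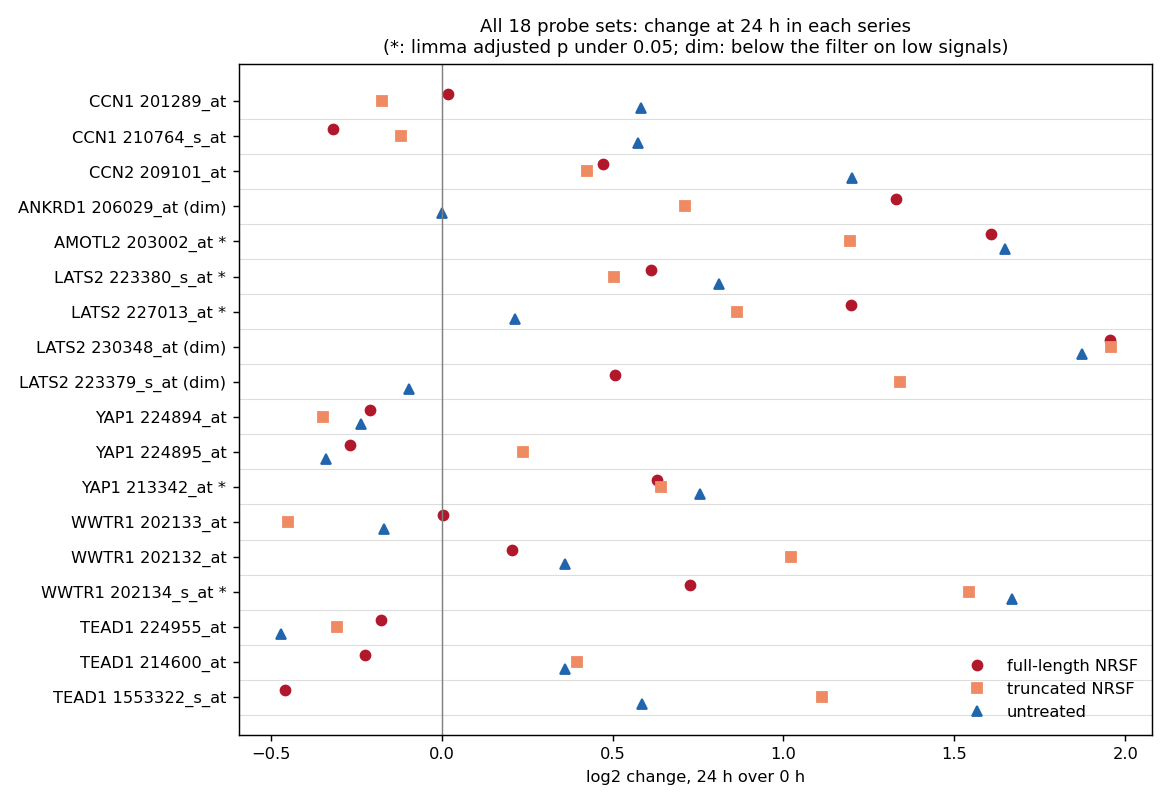
Log2 change at 24 h over 0 h on each of the 18 probe sets, with 1 point per series; an asterisk marks an adjusted p under 0.05 and "dim" a probe set below the filter on low signals. The probe sets of LATS2 lie to the right of 0 except 223379_s_at in untreated cells at −0.10, whereas those of YAP1, WWTR1 and TEAD1 lie on both sides.

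Genes that surround the 8 in the pathway were called in both directions, as were genes at large. Of 16 genes of the Hippo kinase arm and its upstream regulators 2 rose and 2 fell at 24 h, against 8.04% up and 8.2% down over all genes, and the list's median was 0.14 log2 beside −0.03 over all genes. STK3, a kinase that activates LATS, fell by 1.29 ± 0.28 (adjusted p = 0.0046) and AMOTL1, the sister gene of AMOTL2, by 0.99 ± 0.19 (adjusted p = 0.0023). FRMD6, an upstream scaffold gene, rose by 0.72 ± 0.14 (adjusted p = 0.0018), and STK4, the sister kinase of STK3, by 0.56 ± 0.14 (adjusted p = 0.013), while the scaffold gene WWC1 stood at 0.64 ± 0.36 (adjusted p = 0.28). STK4 is outside the rule for named genes and was chosen after its value was seen. With the mean of all probe sets STK3 stood at −0.34 (adjusted p = 0.71), AMOTL1 at −0.0039 (adjusted p = 0.99) and STK4 at 0.39 (adjusted p = 0.27), and STK4 stood at 0.44 (adjusted p = 0.16) without the full-length series and at 0.61 (adjusted p = 0.052) without the untreated series. STK3 also missed the threshold at 24 h with no filter on low signals (adjusted p = 0.094) and without the trend (adjusted p = 0.10), STK4 without the trend (adjusted p = 0.10), and FRMD6 without the mean-variance trend (adjusted p = 0.061). At 48 h 2 rose and 2 fell, against 4.5% up and 3.88% down over all genes: STK3 at −1.21 ± 0.28 (adjusted p = 0.014), AMOTL1 at −0.89 ± 0.19 (adjusted p = 0.0088), STK4 at 0.49 ± 0.14 (adjusted p = 0.044) and, chosen after its value was seen, the kinase gene MAP4K4 at 0.61 ± 0.18 (adjusted p = 0.044). Without the full-length series these 48 h changes were −0.70 (adjusted p = 0.20) for STK3, −0.90 (adjusted p = 0.11) for AMOTL1, 0.39 (adjusted p = 0.29) for STK4 and 0.63 (adjusted p = 0.14) for MAP4K4, so that all 4 calls ended. Leaving out the untreated series also ended those of AMOTL1 (−0.91, adjusted p = 0.060), STK4 (0.48, adjusted p = 0.20) and MAP4K4 (0.61, adjusted p = 0.16), and leaving out the truncated series those of STK4 (0.59, adjusted p = 0.053) and MAP4K4 (0.60, adjusted p = 0.12).

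Of 7 listed TEAD partners and cofactors 5 were kept, and TEAD2 alone was called, lower at 24 h by 1.26 ± 0.23 (adjusted p = 0.0017) and then higher from 24 to 48 h by 1.06 ± 0.23 (adjusted p = 0.020). TEAD4 and TEAD3 stood at 0.69 ± 0.24 (adjusted p = 0.062) and 0.48 ± 0.48 (adjusted p = 0.57) at 24 h, and the cofactor gene VGLL1, with 2 arrays at the floor, at 0.90 ± 0.89 (adjusted p = 0.57). VGLL1 stood at 2.86 (adjusted p = 0.023) without the untreated series, at −0.16 (adjusted p = 0.95) without the truncated series and near 0 without the full-length series. The TEAD2 fall ended when its probe sets were averaged (−0.97, adjusted p = 0.15), and its later rise ended without the truncated 24 h array (0.83, adjusted p = 0.11) or without any 1 of the series (adjusted p = 0.073 to 0.16). The median of the 5 at 24 h was 0.48, and over all genes 8.2% fell at 24 h and 1.72% rose from 24 to 48 h.

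Of 18 other YAP and TAZ target genes 17 were kept; 2 rose and 2 fell at 24 h, against 8.04% up and 8.2% down over all genes, with a median of 0.03. GADD45A, a stress gene that arrests the cell cycle, rose by 1.48 ± 0.14 (adjusted p = 4.4e-06), and AJUBA, a LIM protein gene whose product inhibits LATS, by 1.02 ± 0.16 (adjusted p = 5.4e-04). RBMS3, which encodes an RNA-binding protein, fell by 1.64 ± 0.26 (adjusted p = 4.3e-04), and CCDC80, a matrix gene chosen after its value was seen, by 0.93 ± 0.24 (adjusted p = 0.013). ARHGEF17 stood at −1.57 ± 0.69 (adjusted p = 0.14). The calls of GADD45A, AJUBA and RBMS3 stood under all 12 alternatives, and that of CCDC80 ended without the full-length series (−0.80, adjusted p = 0.14), without the truncated series (−0.90, adjusted p = 0.062), without the trend and with averaged probe sets. At 48 h 2 rose and 3 fell, against 4.5% up and 3.88% down over all genes, with a median of 0.07: AJUBA stood at 0.83 ± 0.16 (adjusted p = 0.0052), RBMS3 at −1.47 ± 0.26 (adjusted p = 0.0024) and CCDC80 at −0.98 ± 0.24 (adjusted p = 0.018), and, chosen after their values were seen, the receptor kinase gene AXL at 0.60 ± 0.17 (adjusted p = 0.039) and the ectoenzyme gene NT5E at −0.62 ± 0.15 (adjusted p = 0.018). Without the truncated series AXL stood at 0.39 (adjusted p = 0.27), NT5E at −0.47 (adjusted p = 0.13) and CCDC80 at −0.89 (adjusted p = 0.091). Without the full-length series AXL stood at 0.64 (adjusted p = 0.19), NT5E at −0.75 (adjusted p = 0.059), CCDC80 at −1.06 (adjusted p = 0.11) and AJUBA at 0.70 (adjusted p = 0.12), and the calls of NT5E (adjusted p = 0.089) and CCDC80 (adjusted p = 0.084) also ended without the untreated series. The 48 h call of RBMS3 held without any 1 of the series and ended with no filter on low signals (adjusted p = 0.065) and without the trend (adjusted p = 0.10). GADD45A fell from 24 to 48 h by 1.52 ± 0.14 (adjusted p = 4.0e-05), the 1 call of the list in that comparison, where 1.78% of all genes fell. That call was kept in 10 of 12 alternatives and ended with no filter on low signals and without the trend.

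Of the other CCN family genes, 1 of 4 was bright enough to test: CCN3, whose product often opposes CCN2, rose by 0.70 ± 0.20 (adjusted p = 0.027) at 24 h and 1.07 ± 0.20 (adjusted p = 0.0044) at 48 h. Its 24 h call was kept in 6 of 12 alternatives and ended without the full-length series (0.51, adjusted p = 0.27), without the truncated series (0.65, adjusted p = 0.12) and without the truncated 24 h array (0.71, adjusted p = 0.075). Its 48 h call ended without the full-length series (1.05, adjusted p = 0.075) and without the trend (adjusted p = 0.099). Rises were called for 8.04% of all genes at 24 h and 4.5% at 48 h. SRF and its MRTF cofactors are also known to regulate CCN1 and CCN2. Of 17 genes of these factors and their contractile targets 14 were kept, 0 rose and 3 fell at 24 h, against 8.04% up and 8.2% down over all genes, with a median of −0.20. MRTFB fell by 0.91 ± 0.16 (adjusted p = 0.0013), though with the mean of all probe sets it stood at 0.06 (adjusted p = 0.94). MRTFA, TPM2 and MYL9 stood at −1.24 ± 0.47 (adjusted p = 0.088), −0.92 ± 0.33 (adjusted p = 0.073) and 0.87 ± 0.93 (adjusted p = 0.60), and TPM2 at −1.48 (adjusted p = 0.013) without the untreated series. The actin-binding genes CNN2 (read by an _x_at probe set, prone to cross-hybridization) and CALD1, chosen after their values were seen, fell by 0.60 ± 0.19 (adjusted p = 0.037) and 0.58 ± 0.19 (adjusted p = 0.043), and leaving out the truncated or the untreated series ended both calls (adjusted p = 0.12 to 0.19), as did leaving out the truncated 24 h array (adjusted p = 0.14 and 0.25). Without the full-length series CNN2 stood at −0.64 (adjusted p = 0.15). At 48 h MRTFB was the 1 call, at −0.69 ± 0.16 (adjusted p = 0.016), where 3.88% of all genes fell. It ended without the full-length series (−0.72, adjusted p = 0.11) and without the untreated series (−0.62, adjusted p = 0.14). From 24 to 48 h FHL2, chosen after its value was seen, rose by 0.53 ± 0.14 (adjusted p = 0.044), where 1.72% of all genes rose. That call ended without any 1 of the series or the truncated 24 h array (adjusted p = 0.067 to 0.24).

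None of 6 integrin subunit genes, whose products are the receptors of CCN proteins, was called by limma at 24, 48 h or between them, with unadjusted p under 0.05 for 1, 2 and 1 of them; over all genes 16.2%, 8.37% and 3.5% were called. ITGA6, ITGB1, ITGA5 and ITGB5 stood at 0.39 ± 0.20 (adjusted p = 0.23), −0.35 ± 0.14 (adjusted p = 0.12), −0.31 ± 0.21 (adjusted p = 0.36) and 0.17 ± 0.15 (adjusted p = 0.50) at 24 h, around a list median of 0.03.

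**Figure D4:**
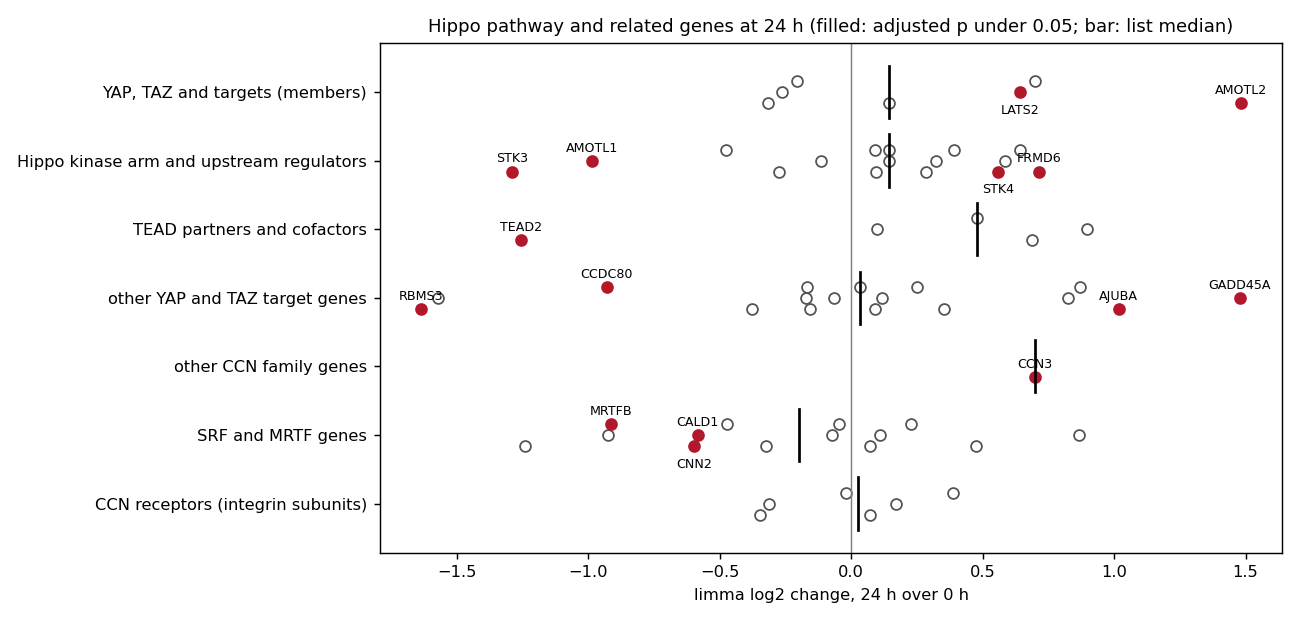
Limma's log2 change at 24 h over 0 h for the 7 tested members and the kept genes of 6 related lists, 1 point per gene, filled and named where the adjusted p is under 0.05, with a bar at each list's median. Each list with more than 1 call except the SRF and MRTF genes and the members has calls on both sides of 0, and AMOTL2 and GADD45A lie farthest right at 1.48 and 1.48.

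The genes whose log2 signal over the 9 arrays was most like that of CCN1, by Pearson correlation, were DDX6 at 0.936, ELOC at 0.927, MRPS18C at 0.920, TMEM87A at 0.911 and UBE2V2 at 0.893. For CCN2 they were CHST2 at 0.929, KLHDC8B at 0.908, RILP at 0.905, ADGRE5 at 0.903 and OLFM2 at 0.902. These are descriptions over 9 arrays that share times and series, with 0.442% of all genes above 0.8 with CCN1 and 0.406% with CCN2, and none of the members is among them.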

How the data were processed

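RNA of SK-N-AS cells was measured on 9 Affymetrix arrays, 1 per group. The deposited values are signal intensities, 1 per probe set, and the submitters' processing notes name GCOS, without settings. The trimmed mean (2% off each end) was equal on all arrays, so the authors' scaling was kept. GEO's platform annotation, with symbols updated by Entrez ID, named 1 gene for 41091 probe sets, several for 1801 and none for 11721. Signals were floored at the 25th percentile of all values, and log2 was taken of the deposited signals. The brightest probe set stood for each of 19775 genes, and 13804 genes whose mean log2 passed the 40th percentile over probe sets (4.20) were tested with limma 3.58.1 (R 4.3.3), lmFit, then eBayes with its trend option. Tests were two-sided, and p-values were adjusted over all genes by Benjamini-Hochberg. The time model held series and time (4 residual degrees of freedom), the exposure model added a term per construct after 0 h (2). No label says that arrays come from separate cultures, so p-values reflect the spread of 9 arrays, which may be technical, and the number of arrays limits precision. The models were also run on simulated data with planted changes and independent noise. Those data held no series or array effects, so that run does not test the p-values given here. The members and lists were chosen with earlier results of these data known. The rule for named genes takes all members, 4 genes per list by size of the 24 h change, and the 5 genes most correlated with CCN1 and with CCN2. The lists are the Hippo kinase arm, TEAD partners, other YAP and TAZ targets, other CCN genes, SRF and MRTF genes, integrin subunits, and markers of sympathetic neuroblast, mesenchymal, epithelial, blood, endothelial and muscle cells. Alternatives changed the scaling, floor, filter, probe set summary, variance trend and series used. Promoter sequences are RefSeq's (GRCh38.p14).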

Additional observations from a re-analysis of the deposited data

Results flagged for a closer look

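CCN2 at 48 h over 0 h was set aside for a closer look because both construct series moved one way and the untreated series the other: −0.78 log2 under full-length NRSF and −0.69 under truncated NRSF, against 1.34 in untreated cells. The mean of the construct series minus the untreated series was −2.08 log2. Among the arrays it uses, the full-length 0 h and untreated 48 h arrays had high ACTB 3′ over 5′ ratios (4.19 and 3.47). With 1 array per group and 1 probe set for CCN2 this difference at 48 h was not tested; the exposure model over 24 and 48 h did not call it.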

How the results depend on the processing

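The labels carry no replicate numbers, but the time model compared arrays within a series; without series as a block 2038, 967 and 392 genes were called at 24 h, at 48 h and between them, within 1.5 times of the counts with it. Over the alternatives, the 7 tested members kept their direction and their side of the threshold in 320 of 350 results, the call ended in 14, the sign turned in 15 and a call was gained in the same direction in 1 (TEAD1 at 48 h); WWTR1 at 24 h gained a call with its sign turned. Limma called 2242 genes at 24 h, 1156 at 48 h and 483 between 24 and 48 h, and 1 and 5 for full-length and truncated NRSF. With no filter on low signals these were 1264, 394, 0, 0 and 0 (2743, 1135 and 1498 at an unadjusted p under 0.05 for the last 3). When probe sets of a gene were averaged they were 1213, 477, 175, 0 and 0 (unadjusted 575 and 852 for the constructs), and without the trend 539, 18, 0, 0 and 0 (unadjusted 1990, 717 and 909 for the last 3). Leaving out 1 series gave 890 to 1465 at 24 h, 212 to 660 at 48 h and 88 to 197 between them, and without the truncated 24 h array 1385 and 201 were called at 24 h and between 24 and 48 h. Truncated NRSF had 3 calls under quantile normalization, 1 with the floor at the 40th percentile and 1 with the filter at the 60th, and full-length NRSF 0 with that floor (unadjusted 514). Genes at 2-fold or more numbered 2710, 2561, 3737, 2641, 2571, 2450 for full-length NRSF at 24 and 48 h, truncated NRSF at 24 and 48 h and untreated cells at 24 and 48 h. In that order they were 4982, 4880, 6289, 4693, 4491, 4702 with no filter and 1208, 994, 1925, 1146, 1119, 889 with the filter at the 60th percentile; with log2(value + 16) they were 1795, 1632, 1696, 1586, 1513 in all but the truncated 24 h array, and with the floor at the 40th percentile 1678, 1565 in untreated cells. Under quantile normalization the truncated 24 h split was 1701 higher and 2015 lower, instead of 2107 and 1630. Signs that turned when probe sets were averaged were, at 24 h, TEAD1 (0.091), YAP1 (0.097), WWTR1 (0.55), ITGB1 (0.20), MRTFB (0.061) and WWC1 (−0.090), and at 48 h YAP1 (0.21) and MRTFB (0.13). For the constructs they were LATS2 (0.56 full-length, 0.35 truncated), TEAD1 (−0.052 full-length) and WWTR1 (0.015 truncated). Under quantile normalization CCN2 at 48 h turned to 0.017. Leaving out 1 series moved CCN2 at 48 h over −0.74 to 0.32, CCN1 at 24 h over −0.079 to 0.30, VGLL1 at 24 h over −0.16 to 2.86 (−0.0075 without the full-length series), and from 24 to 48 h TEAD1 over −0.084 to 0.014, WWTR1 over −0.32 to 0.045 and YAP1 over −0.042 to 0.17. The cause was not tested. Dim probe sets, ANKRD1 among them, are limited by the floor.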
